A study of Rattus norvegicus with 20 samples.

Results

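The tubulins described here are 9 genes, 5 beta-tubulins (Tubb2a, Tubb2b, Tubb4b, Tubb5 and Tubb6) and 4 alpha-tubulins (Tuba1a, Tuba1b, Tuba1c and Tuba4a). They were found by name in the annotation of 31042 probe sets, which represent 14217 genes, and were chosen by the measured levels of Tubb2a, which lay lower at 55 to 440 mg/kg and less so at 881 mg/kg, together with the other tubulins. Of the 9 genes, 6 had a probe set of their own, and Tuba1a, Tuba1b and Tuba1c were measured only by 1 probe set that the annotation gives to all 3. In all, 11 probe sets carried a tubulin name, 8 with 1 symbol and 3 with several.

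Liver RNA came from male Harlan Sprague-Dawley rats that received triphenyl phosphate, an organophosphate used as a flame retardant and plasticiser, in corn oil by gavage, 4 daily doses in all. The groups were vehicle (corn oil alone, 5 arrays) and 55, 110, 220, 440 and 881 mg/kg (3 arrays each), 20 arrays in total. The sample labels give 440 mg/kg where the protocol text gives 441 mg/kg. Livers were taken on day 5, so no array shows an earlier time, and neither the ages of the rats nor whether each array stands for a rat of its own is stated in the labels. The p-values therefore measure the spread between these samples.

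Alpha- and beta-tubulin form the dimers from which microtubules are built, and microtubules carry vesicles and secreted proteins through hepatocytes and form the spindle of dividing cells. Cells adjust tubulin mRNA to the pool of free dimers: an excess of free tubulin leads to decay of tubulin mRNAs while they are being translated, through the adaptor TTC5, as shown in human cells. Tubulin genes of one class are near-identical in their coding sequence, so a probe set can pick up RNA of more than one of them.

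The deposited values are log2 signals, so a difference of 1 is a doubling, and levels of different probe sets are not set against each other. A gene was called when its Benjamini-Hochberg adjusted p, over all 14217 genes of a comparison in limma, was under 0.05. Tubb2a was not tested, because its own pattern chose the set; the other 5 tubulins with a probe set of their own were tested.

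The array of 881 mg/kg replicate 2 stood apart from the other 19. Its Gapdh control probe sets differed by 5.24 between the 3' and 5' ends, against 0.81 to 1.64 on the others, a measure used as a sign of RNA quality, and its median correlation with the other arrays was 0.980, against 0.990 to 0.994. Calls at 881 mg/kg are therefore given with and without it, as are the other counts and calls described here that change without it. All 11 measured hepatocyte markers lay above the array median on all 20 arrays. In bulk liver, fewer cells of a type and less RNA per cell cannot be told apart.

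Tubb2a encodes a beta-tubulin of class II, best known from neurons. Its signal in the 5 vehicle livers was 12.60, 12.40, 12.65, 12.69 and 12.39. In dosed livers it was 10.42, 10.76 and 11.09 at 55 mg/kg, 9.85, 10.78 and 10.79 at 110 mg/kg, 10.61, 10.42 and 10.73 at 220 mg/kg, and 9.60, 10.38 and 10.07 at 440 mg/kg. The 881 mg/kg livers held 11.47, 10.94 and 12.11, with replicate 2 the lowest of the 3. Every dosed liver lay below every vehicle liver, at the highest dose too.

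The mean of the 55 to 440 mg/kg groups differed from vehicle by -2.09 ± 0.175 (SE), a 4.25-fold lower signal. By dose the differences from vehicle were -1.79 at 55, -2.07 at 110, -1.96 at 220, -2.53 at 440 and -1.04 at 881 mg/kg, each with an SE of 0.24. The difference at 881 mg/kg was -0.76 without replicate 2. Group means were 12.55 ± 0.14 in vehicle (SD, n = 5), then 10.76 ± 0.34, 10.47 ± 0.54, 10.59 ± 0.15, 10.02 ± 0.39 and 11.51 ± 0.58 (SD, n = 3 each) with rising dose. The signal at 881 mg/kg was 1.49 ± 0.27 (SE) higher than at 440 mg/kg, or 1.77 higher without replicate 2. These values describe the pattern that chose the gene and carry no test.

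In the order of dose-group levels, the 440 mg/kg livers lay below all those at 55 and 220 mg/kg and overlapped those at 110 mg/kg. The 55, 110 and 220 mg/kg groups overlapped one another. The 881 mg/kg livers overlapped the 55 mg/kg livers only through replicate 2.

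**Figure D1:**
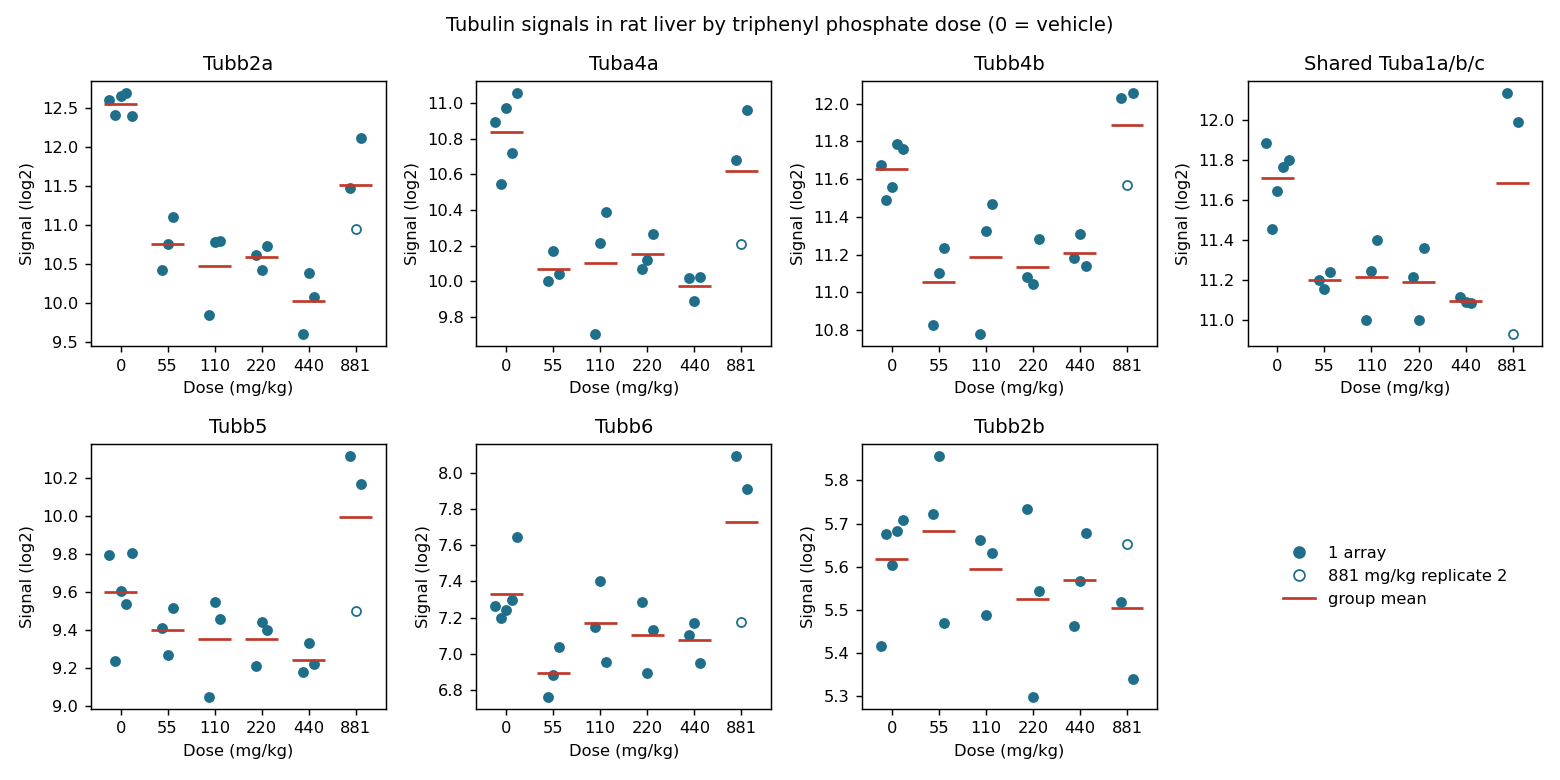
Log2 signal (vertical axis, a scale of its own in each panel) of each tubulin probe set against dose in mg/kg, with 0 for vehicle; each point is 1 array, bars are group means, and the open circle is 881 mg/kg replicate 2. Tubb2a, Tuba4a, Tubb4b and the shared Tuba1 probe set lie below every vehicle array at 55, 110, 220 and 440 mg/kg.

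The promoters of 4 members are shown because Tubb2a, Tuba4a and Tubb4b were the 3 members with a probe set of their own that differed most from vehicle over 55 to 440 mg/kg, and Tubb2b is the near-identical neighbour of Tubb2a. Each runs from 250 bases before to 50 after the start site in RefSeq (GRCr8), and all 9 members matched an entry. Capitals mark 3 motifs searched on both strands: the TATA box (TATAAA), the CCAAT box (CCAAT) and the GC box (GGGCGG). No match overlapped another.
Tubb2a (chr17:31001936-31002235, plus strand): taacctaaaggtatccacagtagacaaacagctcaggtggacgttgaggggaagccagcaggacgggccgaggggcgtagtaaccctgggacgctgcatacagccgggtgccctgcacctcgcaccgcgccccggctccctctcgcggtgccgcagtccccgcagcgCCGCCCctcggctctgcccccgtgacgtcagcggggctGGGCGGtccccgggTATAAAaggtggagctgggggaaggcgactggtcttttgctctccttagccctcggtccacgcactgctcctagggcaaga
Tuba4a (chr9:84162535-84162834, minus strand): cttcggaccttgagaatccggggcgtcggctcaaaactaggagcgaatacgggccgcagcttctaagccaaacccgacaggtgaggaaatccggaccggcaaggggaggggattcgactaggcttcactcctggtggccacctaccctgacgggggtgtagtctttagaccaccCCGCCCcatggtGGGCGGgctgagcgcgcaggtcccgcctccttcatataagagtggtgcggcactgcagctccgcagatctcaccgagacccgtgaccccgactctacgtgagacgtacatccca
Tubb4b (chr3:28438406-28438705, minus strand): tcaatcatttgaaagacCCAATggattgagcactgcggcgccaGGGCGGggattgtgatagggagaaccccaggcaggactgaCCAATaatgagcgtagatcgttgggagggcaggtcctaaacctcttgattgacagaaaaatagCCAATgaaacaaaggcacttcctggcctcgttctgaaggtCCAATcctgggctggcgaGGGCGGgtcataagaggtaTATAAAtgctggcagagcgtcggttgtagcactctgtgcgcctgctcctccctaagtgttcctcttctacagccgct
Tubb2b (chr17:30952836-30953135, plus strand): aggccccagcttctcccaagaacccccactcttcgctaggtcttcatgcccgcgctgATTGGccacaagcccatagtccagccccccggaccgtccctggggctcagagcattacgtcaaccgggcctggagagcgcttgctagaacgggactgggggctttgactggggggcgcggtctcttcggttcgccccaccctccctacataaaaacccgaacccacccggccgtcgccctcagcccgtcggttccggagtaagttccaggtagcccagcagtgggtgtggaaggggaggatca

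TATAAA stood in 2 of the 9 tubulin promoters, those of Tubb2a and Tubb4b, and in 14.2% of 33469 promoters of the same length. CCAAT stood in 7 of 9 and in 37.5% of all promoters. GGGCGG stood in 8 of 9 and in 33.1% of all promoters, and Tubb2b was the member without it. Neither TATAAA nor CCAAT was found in the Tuba4a window. A match describes letters in this window and is not a binding site.

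Tuba4a encodes an alpha-tubulin whose gene, unlike those of the Tuba1 genes, does not encode the terminal tyrosine. Its signal in the vehicle livers was 10.89, 10.55, 10.97, 10.72 and 11.06. In dosed livers it was 10.00, 10.17 and 10.04 at 55 mg/kg, 9.70, 10.22 and 10.39 at 110 mg/kg, 10.07, 10.12 and 10.26 at 220 mg/kg, and 10.02, 9.89 and 10.02 at 440 mg/kg. The 881 mg/kg livers held 10.68, 10.21 and 10.96. All livers at 55 to 440 mg/kg lay below all vehicle livers, and the 881 mg/kg livers overlapped them.

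Tuba4a fell at each of the 4 lower doses, by 0.77 at 55 mg/kg (adjusted p = 0.0114), by 0.73 at 110 mg/kg (adjusted p = 0.0117), by 0.69 at 220 mg/kg (adjusted p = 0.0187) and by 0.86 at 440 mg/kg (adjusted p = 0.00137). The SE of each was 0.16. Over the 4 doses together it fell by 0.76 ± 0.11 (SE, adjusted p = 0.000214), a 1.70-fold lower signal. It was not called at 881 mg/kg, with a difference of -0.22 (95% interval -0.55 to 0.10, adjusted p = 0.339), or -0.02 (adjusted p = 0.956) without replicate 2. The call at 110 mg/kg was lost without its replicate 1 (adjusted p = 0.0946). The call at 55 mg/kg was lost without its replicate 1 or 3 (adjusted p = 0.053 and 0.0528), and that at 220 mg/kg without its replicate 1 or 2 (adjusted p = 0.0722 and 0.0828).

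Tubb4b encodes a beta-tubulin of class IV that is widely expressed and also found in cilia. Its signal in the vehicle livers was 11.68, 11.49, 11.56, 11.79 and 11.76. In dosed livers it was 10.83, 11.10 and 11.24 at 55 mg/kg, 10.78, 11.32 and 11.47 at 110 mg/kg, 11.08, 11.04 and 11.28 at 220 mg/kg, and 11.18, 11.31 and 11.14 at 440 mg/kg. The 881 mg/kg livers held 12.03, 11.57 and 12.06. The livers at 55 to 440 mg/kg again lay wholly below vehicle, whereas 2 of the 3 livers at 881 mg/kg lay above every vehicle liver.

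Over 55 to 440 mg/kg Tubb4b fell by 0.51 ± 0.10 (SE, adjusted p = 0.0031), a 1.42-fold lower signal. By dose it fell by 0.60 at 55 mg/kg (adjusted p = 0.0281), by 0.52 at 220 mg/kg (adjusted p = 0.049) and by 0.45 at 440 mg/kg (adjusted p = 0.0491), each with an SE of 0.14. At 110 mg/kg the difference was -0.46 and was not called (adjusted p = 0.0805), but it was without 881 mg/kg replicate 2 (adjusted p = 0.0431). The difference at 881 mg/kg was 0.23 (adjusted p = 0.265), or 0.39 (adjusted p = 0.0936) without replicate 2. The 220 and 440 mg/kg calls stood at the threshold, and 19 of 29 other settings lost each of them. The 55 mg/kg call was lost with the replicate numbers as a block (adjusted p = 0.101), without 55 mg/kg replicate 1 (0.153) or 2 (0.0863), and without vehicle replicate 4 (0.0673).

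Tuba1a, Tuba1b and Tuba1c encode alpha-tubulins; Tuba1b is the widely expressed one and Tuba1a is prominent in developing neurons. Their shared probe set cannot give a value for any 1 of the 3. Its signal in the vehicle livers was 11.89, 11.45, 11.65, 11.77 and 11.80. In dosed livers it was 11.20, 11.16 and 11.24 at 55 mg/kg, 11.00, 11.24 and 11.40 at 110 mg/kg, 11.22, 11.00 and 11.36 at 220 mg/kg, and 11.12, 11.09 and 11.08 at 440 mg/kg. The 881 mg/kg livers held 12.14, 10.93 and 11.99, so replicate 2 was the lowest array of all 20 and the other 2 were the highest. All livers at 55 to 440 mg/kg lay below all vehicle livers. At a single dose of these, 4.26% to 8.40% of all genes did so, and the share over all probe sets was not taken.

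This probe set was tested in a fit over all 31042 probe sets, added after the data had been seen. Over 55 to 440 mg/kg it fell by 0.54 ± 0.14 (SE, adjusted p = 0.0196), where 2.43% of all probe sets were called lower. That call was lost with the replicate numbers as a block (adjusted p = 0.085) and without vehicle replicate 1 (0.0639), 4 (0.0584) or 5 (0.051). By single dose the differences were -0.51, -0.50, -0.52 and -0.61 at 55, 110, 220 and 440 mg/kg, none of them called (adjusted p between 0.0572 and 0.226). Without 881 mg/kg replicate 2, whose spread enters the estimate for all groups, all 4 were called, with adjusted p between 0.000915 at 440 mg/kg and 0.012 at 55 mg/kg. At 440 mg/kg in that fit, 3.04% of all probe sets were called lower. The difference at 881 mg/kg was -0.03 (adjusted p = 0.948), or 0.35 without replicate 2 (adjusted p = 0.0855).

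Tubb5 encodes the class I beta-tubulin made in most cell types. Its signal in the vehicle livers was 9.80, 9.24, 9.61, 9.54 and 9.81. In dosed livers it was 9.41, 9.27 and 9.52 at 55 mg/kg, 9.05, 9.55 and 9.46 at 110 mg/kg, 9.21, 9.44 and 9.40 at 220 mg/kg, and 9.18, 9.33 and 9.22 at 440 mg/kg. The 881 mg/kg livers held 10.32, 9.50 and 10.17. The livers at every dose overlapped the vehicle livers. Replicates 1 and 3 at 881 mg/kg lay above all vehicle livers, as for 17.5% of all genes.

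None of the Tubb5 differences from vehicle was called at 55 to 440 mg/kg, where they ran from -0.20 at 55 mg/kg to -0.35 at 440 mg/kg (adjusted p = 0.172 at 440 mg/kg). Over the 4 doses the difference was -0.26 (95% interval -0.51 to -0.02, adjusted p = 0.156). With all arrays the 881 mg/kg livers differed by 0.40 ± 0.16 (SE, adjusted p = 0.0891), and without replicate 2 Tubb5 rose by 0.65 (adjusted p = 0.00634). The second Tubb5 probe set rose by 0.42 at 881 mg/kg with all arrays (adjusted p = 0.0459 over all probe sets), or by 0.63 without replicate 2 (adjusted p = 0.00389), and its difference over 55 to 440 mg/kg was -0.15 (adjusted p = 0.435).

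Tubb6 encodes a class V beta-tubulin. Its signal in the vehicle livers was 7.26, 7.20, 7.24, 7.30 and 7.65. In dosed livers it was 6.76, 6.88 and 7.04 at 55 mg/kg, 7.15, 7.40 and 6.95 at 110 mg/kg, 7.28, 6.89 and 7.13 at 220 mg/kg, and 7.10, 7.17 and 6.95 at 440 mg/kg. In the 881 mg/kg livers it was 8.10, 7.18 and 7.91. The livers at 55 and 440 mg/kg lay below all vehicle livers, and those at 110 and 220 mg/kg overlapped them. Replicates 1 and 3 at 881 mg/kg lay above all vehicle livers, as for 17.5% of all genes.

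At 55 mg/kg the difference of Tubb6 from vehicle was -0.43 (adjusted p = 0.18), and it was called without 881 mg/kg replicate 2 (adjusted p = 0.0436). Over 55 to 440 mg/kg the difference was -0.27 (adjusted p = 0.153), called without that array (adjusted p = 0.0413). Its difference at 881 mg/kg was 0.40 (adjusted p = 0.0932). Without replicate 2 Tubb6 rose by 0.68 (adjusted p = 0.00332), and it was also called without vehicle replicate 5 (adjusted p = 0.0489). The second Tubb6 probe set lay below the array median on 20 of 20 arrays, with differences of -0.06 over 55 to 440 mg/kg (adjusted p = 0.774) and -0.17 at 881 mg/kg (adjusted p = 0.385), or -0.07 there without replicate 2 (adjusted p = 0.815).

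Tubb2b, the other class II beta-tubulin, lay below the array median on 20 of 20 arrays. Its group means were 5.62 in vehicle and 5.68, 5.59, 5.52, 5.57 and 5.50 with rising dose. No comparison called it: the difference was -0.02 over 55 to 440 mg/kg (95% interval -0.19 to 0.14, adjusted p = 0.887) and -0.11 at 881 mg/kg (adjusted p = 0.495), or -0.19 without replicate 2 (adjusted p = 0.347). RMA compresses differences at such low signals, so the interval describes the signal and not the RNA. A pair of probe sets annotated to both Tubb4b and C7, a complement gene, overlapped vehicle at every dose and is attributed to neither. Their differences over 55 to 440 mg/kg were -0.01 (adjusted p = 0.977) and -0.35 (adjusted p = 0.489). At 881 mg/kg they were -0.40 (adjusted p = 0.165) and -0.96 (adjusted p = 0.0785). Without replicate 2 they were -0.36 (adjusted p = 0.369) and -0.95 (adjusted p = 0.186).

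**Figure D2:**
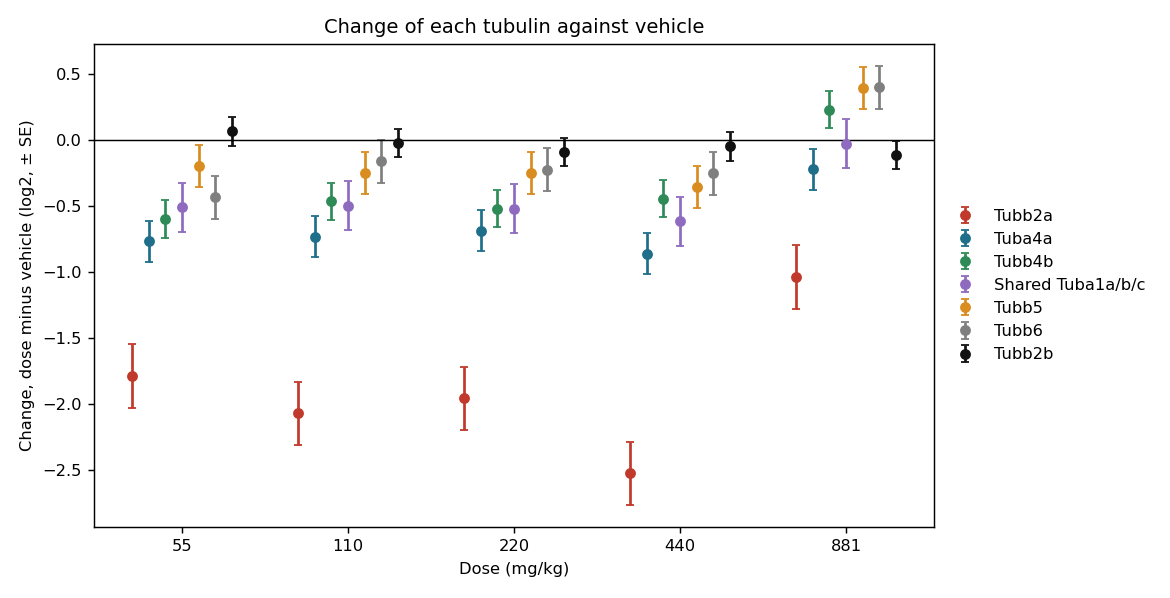
Difference from vehicle (log2, dose minus vehicle, ± SE of the limma fit) of each tubulin by dose in mg/kg. Tubb2a lies lowest at every dose, Tuba4a, Tubb4b and the shared Tuba1 probe set lie between -0.45 and -0.86 at 55 to 440 mg/kg, and Tubb5, Tubb6 and Tubb4b lie above 0 at 881 mg/kg.

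Among the 5 tested tubulins, 2 were called lower at 55 mg/kg (Tuba4a and Tubb4b), against 0.879% of all genes. At 110 mg/kg 1 was called lower (Tuba4a), against 1.24% of all genes. Without 881 mg/kg replicate 2 the counts were 3 at 55 mg/kg, against 1.30%, and 2 at 110 mg/kg, against 1.74%. At 220 mg/kg the count was 2, against 1.18%, and at 440 mg/kg it was 2, against 4.28%; both times the genes were Tuba4a and Tubb4b. Over 55 to 440 mg/kg Tuba4a and Tubb4b were called lower, where 4.30% of genes were called lower and 8.12% higher. Tubb6 joined them without 881 mg/kg replicate 2, where the share of genes called lower was 5.53%. The median difference of the 5 was -0.27, and that of all genes was 0.00. None of the 5 was called higher at these doses.

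Counting livers rather than calls, all livers of the dose group lay below all vehicle livers for 4 of the 6 tubulins with a probe set of their own at 55 mg/kg (Tubb2a, Tubb6, Tubb4b and Tuba4a), as for 4.26% of all genes. At 110 mg/kg the count was 3 (Tubb2a, Tubb4b and Tuba4a), against 5.28% of genes, and at 220 mg/kg it was the same 3 genes, against 5.02%. At 440 mg/kg it was 4, with Tubb6 again, against 8.40%. Of the 6, only Tubb2a lay wholly below vehicle at 881 mg/kg, against 8.31%. The same held for the 2 livers left without replicate 2, against 13.3%. In those 2 livers Tubb4b, Tubb5 and Tubb6 lay wholly above vehicle, against 17.5% of genes. The counts below vehicle include Tubb2a, which the rule fixed.

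None of the 5 tested tubulins was called at 881 mg/kg in either direction, where 12.7% of genes were called higher and 6.73% lower. The median difference of the 5 was 0.23, against 0.00 for all genes. Without replicate 2, Tubb5 and Tubb6 were called higher, against 7.62% of genes called higher, and the median difference was 0.39.

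The comparison of the 2 highest doses asked whether the tubulins other than Tubb2a also differed between 881 and 440 mg/kg. Their differences were 0.64 ± 0.17 for Tuba4a, 0.68 ± 0.16 for Tubb4b, 0.75 ± 0.18 for Tubb5 and 0.65 ± 0.18 for Tubb6 (SE), and -0.07 for Tubb2b, or -0.14 without 881 mg/kg replicate 2. With all arrays none of the 5 was called (adjusted p between 0.08 and 0.915), where 0.134% of genes were called higher. Without 881 mg/kg replicate 2, Tuba4a rose by 0.84 (adjusted p = 0.0272), Tubb4b by 0.84 (adjusted p = 0.0225), Tubb5 by 0.998 (adjusted p = 0.00457) and Tubb6 by 0.93 (adjusted p = 0.00538). In that fit, which compares 2 livers with 3, 0.528% of genes were called higher. The shared Tuba1 probe set differed by 0.59 with all arrays (adjusted p = 0.361 over all probe sets) and rose by 0.97 without replicate 2 (adjusted p = 0.00202).

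**Figure D3:**
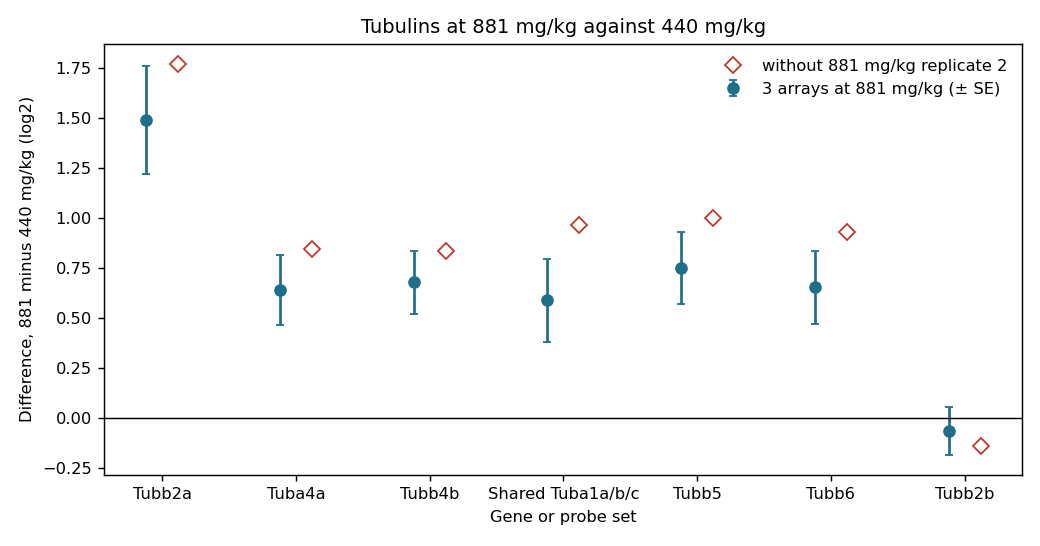
Difference between 881 and 440 mg/kg (log2, 881 minus 440) of each tubulin with all arrays (filled points, ± SE) and without 881 mg/kg replicate 2 (open diamonds). The differences with all arrays lie between 0.59 and 0.75 for Tuba4a, Tubb4b, Tubb5, Tubb6 and the shared Tuba1 probe set, and each is larger without that array, while Tubb2b stays below 0.

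Between 440 and 55 mg/kg, a contrast added after the data had been seen, none of the 5 was called, where 1.03% of genes were called either way. The difference was -0.10 for Tuba4a (95% interval -0.46 to 0.27) and 0.15 for Tubb4b (95% interval -0.18 to 0.49), and that of Tubb2a was -0.74 ± 0.27 (SE). A straight dose trend over all 6 groups called none of the 5, with or without 881 mg/kg replicate 2, where 21.7% of all genes were called with all arrays.

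For each probe set, the deviation of each array from the mean of its dose group was taken. Over the 20 arrays these deviations were compared for the 15 pairs among Tubb2a, Tuba4a, Tubb4b, Tubb5, Tubb6 and the shared Tuba1 probe set. Their Pearson correlations lay between 0.41 and 0.84, with a median of 0.74. Without 881 mg/kg replicate 2 they ran from 0.06 to 0.76, with a median of 0.53. The 6 pairs with Tubb2b lay between -0.54 and -0.15, or between -0.45 and 0.14 without that array. For scale, Tubb2a against each of the 14216 other genes gave a median of -0.03, with the 5th percentile at -0.53 and the 95th at 0.49. That scale was taken with all 20 arrays only. On it Tubb2a gave 0.82 with Tubb4b, 0.66 with Tuba4a, 0.60 with Tubb5, 0.60 with the shared Tuba1 probe set and 0.41 with Tubb6. Without 881 mg/kg replicate 2 these were 0.76, 0.53, 0.42, 0.39 and 0.08. Differences in RNA quality between arrays can enter these correlations, so they are descriptions of the 20 arrays.

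**Figure D4:**
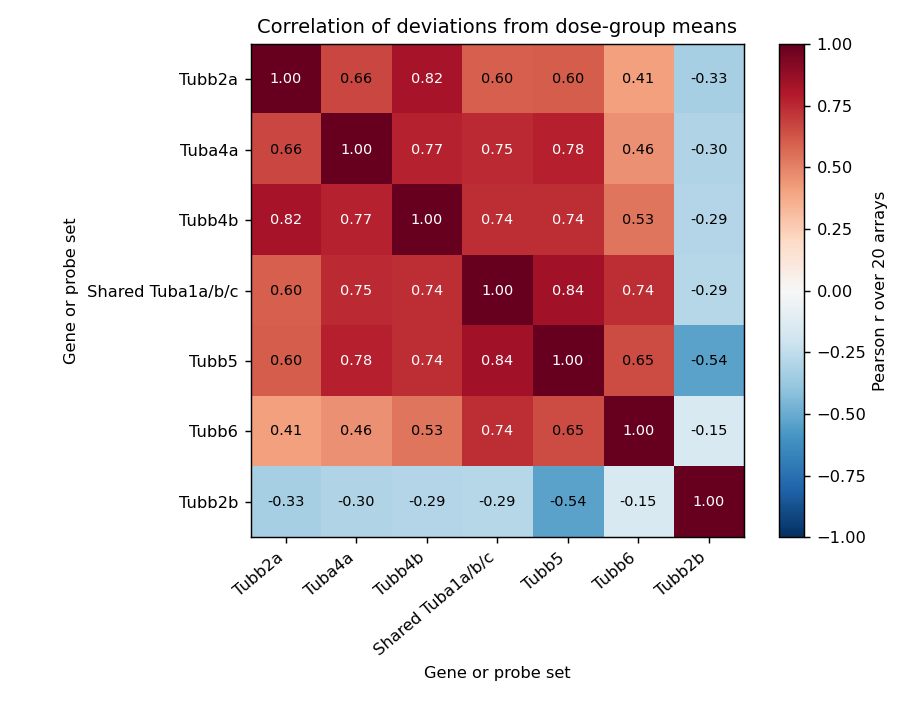
Pearson correlations, over 20 arrays, of the deviations from dose-group means (log2) between tubulins; colour runs from -1 to 1. All pairs without Tubb2b are above 0, between 0.41 and 0.84, and all pairs with Tubb2b are below 0. Without 881 mg/kg replicate 2, which is not drawn, Tubb2b against Tubb6 gave 0.14.

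The genes whose pattern over the 20 arrays was most like that of Tubb2a, by Pearson correlation, were Litaf (r = 0.954, rho = 0.887), Tpst2 (r = 0.910, rho = 0.841), Tuba4a (r = 0.908, rho = 0.886), Syne1 (r = 0.899, rho = 0.863) and Rabggtb (r = 0.888, rho = 0.771). Litaf encodes a protein of late endosomes, Tpst2 a protein tyrosine sulfotransferase, Syne1 a nuclear envelope protein that links the nucleus to the cytoskeleton, and Rabggtb a subunit of the enzyme that attaches lipid to Rab proteins. After group means were removed, the correlations were 0.77 for Litaf, 0.18 for Tpst2, 0.66 for Tuba4a, 0.42 for Syne1 and 0.39 for Rabggtb. Among 14216 genes, Tuba4a ranked 3, Tubb4b 67 (r = 0.756), Tubb5 406 (r = 0.581), Tubb6 922 (r = 0.479) and Tubb2b 7799 (r = -0.039). The ranking rests on the Tubb2a values that chose the set, with the differences between dose groups left in. It is therefore a description and not a test. The ranks were taken with all 20 arrays only.

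The other genes of the microtubule system were read against the shares of all genes called. Over 55 to 440 mg/kg these were 8.12% higher and 4.30% lower, or 10.6% and 5.53% without 881 mg/kg replicate 2. At 881 mg/kg they were 12.7% higher and 6.73% lower, or 7.62% and 3.93% without that array.

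Of the 6 other tubulins measured, 1 was called higher over 55 to 440 mg/kg, against 8.12% of all genes: the gamma-tubulin Tubg1, which nucleates microtubules (0.16, adjusted p = 0.0478). At the highest dose 2 were called higher, against 12.7% of all genes, or 1 without replicate 2, against 7.62%. Tubg1 rose there by 0.28 (adjusted p = 0.0113), or by 0.27 without that array (adjusted p = 0.0386), and the epsilon-tubulin Tube1, a centriole protein, by 0.34 (adjusted p = 0.0165, or 0.0938 without it). None of the 6 was called lower in either comparison, and their median difference was -0.01 over 55 to 440 mg/kg and 0.07 at 881 mg/kg.

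Among 21 tubulin folding cofactors and chaperonin subunits, 1 was called higher over 55 to 440 mg/kg, a smaller share than the 8.12% of all genes, and none lower, with a median of -0.01. It was Tbcel, a relative of folding cofactor E, which rose at every dose, by 0.47 to 0.59, and by 0.51 over 55 to 440 mg/kg (adjusted p = 0.000466). The highest dose called 1 higher, against 12.7% of all genes, and 1 lower, against 6.73%. Tbcel rose by 0.54 (adjusted p = 0.00258), or by 0.48 without replicate 2 (adjusted p = 0.0192), and the folding cofactor Tbcb fell by 0.41 (adjusted p = 0.0111, or 0.103 without that array). In the dose trend 2 were called higher, against 12.9% of all genes, and 1 lower, against 8.81%; without 881 mg/kg replicate 2 it was 1 higher, against 9.80%, and 1 lower, against 7.19%. The third gene was Tbcc, another folding cofactor (0.06 per dose step, adjusted p = 0.0148, or 0.053 without that array). Ttc5, the adaptor named above, was not called at any dose, with a difference of 0.00 over 55 to 440 mg/kg (adjusted p = 0.976); it was singled out after its values had been seen.

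In the gamma-tubulin ring complex list, 0 of 10 were called over 55 to 440 mg/kg, or 1 higher without 881 mg/kg replicate 2, and 1 was called higher at 881 mg/kg, against 12.7% of all genes. Both times it was the centrosome scaffold Akap9, which rose by 0.36 at 881 mg/kg (adjusted p = 0.0488, or 0.306 without replicate 2). Of 13 enzymes that modify tubulin, 1 was called higher over 55 to 440 mg/kg, against 8.12% of all genes, and 3 at 881 mg/kg, against 12.7%. The 3 were the acetyltransferase Atat1 (0.39, adjusted p = 0.0256), the deglutamylase Agtpbp1 (0.38, adjusted p = 0.0119) and the polyglutamylase Ttll5 (0.31, adjusted p = 0.00598). Without replicate 2 only Ttll5 was called (adjusted p = 0.0217), against 7.62% of all genes.

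Of 24 microtubule-associated and plus-end proteins, 1 was called higher over 55 to 440 mg/kg, against 8.12% of all genes, or 4 without 881 mg/kg replicate 2, against 10.6%. At 881 mg/kg 5 were called higher, against 12.7%, or 3 without replicate 2, against 7.62%, and none was called lower in either comparison. The dose trend called 6 of them higher, against 12.9% of all genes, or 4 without that array, against 9.80%. The steepest were the end-binding protein Mapre3 (0.13 per dose step, adjusted p = 0.000312), the plus-end stabiliser Clasp1 (0.08, adjusted p = 0.0223) and the end-binding protein Mapre2 (0.07, adjusted p = 0.00151), and without that array their adjusted p were 0.00143, 0.0405 and 0.00583.

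Of 10 destabilisers and severing proteins, 1 was called higher over 55 to 440 mg/kg, against 8.12% of all genes, or 2 without 881 mg/kg replicate 2, against 10.6%, and 1 was called lower, against 4.30%. At 881 mg/kg 3 were called higher, against 12.7%, or 2 without replicate 2, against 7.62%, and 1 was called lower with or without it. The gene called lower was Stmn3, a member of the stathmin family that binds tubulin dimers. It fell by 0.49 over 55 to 440 mg/kg (adjusted p = 0.00117) and by 0.80 at 881 mg/kg (adjusted p = 0.000172), or by 0.73 without replicate 2 (adjusted p = 0.00186). Stmn1, the founding member of that family, rose by 0.74 at 881 mg/kg (adjusted p = 0.0236), or by 1.08 without replicate 2 (adjusted p = 0.00145). The depolymerising kinesin Kif2a rose at 881 mg/kg by 0.37 (adjusted p = 0.0147, or 0.0864 without replicate 2). In the dose trend 3 of the 10 were called higher, against 12.9% of all genes, and 2 lower, against 8.81%. Without 881 mg/kg replicate 2 the counts were the same, against 9.80% and 7.19%.

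Of 19 transport motors, 2 were called higher over 55 to 440 mg/kg, against 8.12% of all genes. At 881 mg/kg 4 were called higher, against 12.7%, and 1 lower, against 6.73%; without replicate 2 it was 1 higher, against 7.62%, and 0 lower. The dynactin subunit Dctn1 rose by 0.38 at 881 mg/kg (adjusted p = 0.00838), or by 0.39 without replicate 2 (adjusted p = 0.0243). The kinesins Kif16b and Kif1c rose by 0.46 (adjusted p = 0.00918) and 0.39 (adjusted p = 0.0258), and neither was called without that array (adjusted p = 0.0645 and 0.183).

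Of 12 actin and intermediate filament genes, 4 fell over 55 to 440 mg/kg, against 4.30% of all genes, and 1 rose, against 8.12%, with a median of -0.11. Tpm4, a tropomyosin that coats actin filaments, fell by 0.64 (adjusted p = 6.48e-06), Actg1, a cytoplasmic actin, by 0.60 (adjusted p = 0.0119), and Tmsb4x, which binds actin monomers, by 0.33 (adjusted p = 0.0384). The highest dose called 4 of 12 lower, against 6.73% of all genes, or 1 without replicate 2, against 3.93%. That gene was Tpm4, which fell there by 0.56 (adjusted p = 0.000419), or by 0.47 without that array (adjusted p = 0.00431). In the dose trend 5 of 12 were called lower, against 8.81% of all genes, and 1 higher, against 12.9%. Without 881 mg/kg replicate 2 it was 4 lower, against 7.19%, and 1 higher, against 9.80%.

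Of 18 proliferation and spindle genes, 1 was called higher over 55 to 440 mg/kg, against 8.12% of all genes, with a median of 0.11. At 881 mg/kg 7 rose, against 12.7%, with a median of 0.76, and without replicate 2 it was 17, against 7.62%, with a median of 1.21. Mki67, a marker of cycling cells, rose by 1.68 (adjusted p = 0.00269), the cyclin Ccna2 by 1.35 (adjusted p = 0.0295) and the spindle midzone protein Prc1 by 1.02 (adjusted p = 0.0111); without replicate 2 the values were 2.20, 2.16 and 1.55. The part of this list in the tubulin values at 881 mg/kg was not tested. Between 881 and 440 mg/kg no gene of the microtubule, actin or proliferation lists was called with all arrays, where 0.134% of all genes were called higher. Without replicate 2, 10 proliferation genes and 1 destabiliser were called higher, against 0.528%.

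**Figure D5:**
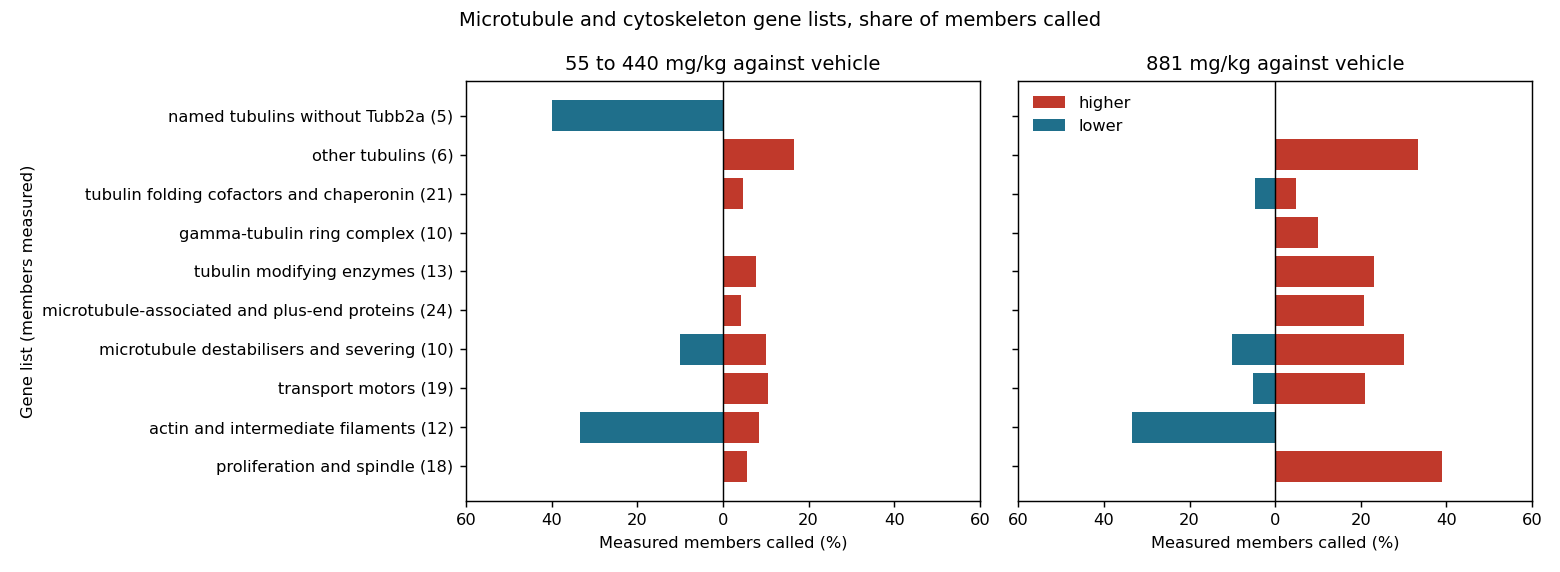
Share of the measured members of each list (number in brackets) called higher (red, to the right) or lower (blue, to the left) in percent, over 55 to 440 mg/kg (left panel) and at 881 mg/kg (right panel), each against vehicle. Named tubulins, at 2 of 5, and actin and intermediate filament genes, at 4 of 12, have the largest shares called lower at 55 to 440 mg/kg among the lists drawn, which leave out the cell type markers, and proliferation genes, at 7 of 18, have the largest share called higher at 881 mg/kg among them.

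Of 69 markers in 7 lists, 0 were called at 55 mg/kg, where 1.93% of all genes were called higher and 0.879% lower. The count lower was 1 at 110 mg/kg, against 1.24% of all genes, and 1 at 220 mg/kg, against 1.18%. None was called higher at these 2 doses, against 2.36% and 2.25%. At 440 mg/kg 2 were called higher, against 6.76% of all genes, and 13 lower, against 4.28%. Without 881 mg/kg replicate 2 the count lower at 440 mg/kg was 18, against 5.29%. The markers called lower at 440 mg/kg were 6 of 12 for stellate cells and fibroblasts, 4 of 10 for endothelium, 2 of 10 for Kupffer cells and macrophages and 1 of 10 for lymphocytes, and 1 bile duct and 1 hepatocyte marker were higher. Over 55 to 440 mg/kg 5 of 12 stellate cell and fibroblast markers were lower (Reln, Lrat, Pdgfrb, Colec11 and Ecm1), 1 of 10 Kupffer cell and macrophage markers was lower (Cd163) and 1 of 7 bile duct markers was higher (Epcam); these were named after their values had been seen. Of all genes, 4.30% were lower and 8.12% higher in that comparison, and without 881 mg/kg replicate 2 the markers counted 8 lower, against 5.53%, and 2 higher, against 10.6%. Of the 69, 28 were lower at 881 mg/kg, against 6.73% of all genes, and 2 higher, against 12.7%. Without replicate 2 the counts there were 11 lower, against 3.93%, and 2 higher, against 7.62%.

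The summed linear signal of the 12 stellate cell and fibroblast markers ran from 7919 to 10032 in vehicle, 6946 to 9196 at 55 mg/kg, 6240 to 9717 at 110 mg/kg, 7408 to 7913 at 220 mg/kg, 5203 to 6723 at 440 mg/kg and 4638 to 6625 at 881 mg/kg. That of the 10 Kupffer cell and macrophage markers ran from 12310 to 15932 in vehicle, 10215 to 18542 at 55 mg/kg, 11498 to 13749 at 110 mg/kg, 10136 to 12171 at 220 mg/kg, 8579 to 11868 at 440 mg/kg and 7942 to 11040 at 881 mg/kg. Both sums overlapped vehicle at 55 and 110 mg/kg and lay wholly below it at 220, 440 and 881 mg/kg. At 220 mg/kg the stellate cell and fibroblast sum lay just below vehicle (7913 against 7919). The sum of the 11 hepatocyte markers ran from 269067 to 272901 in vehicle. It lay below that range by a small margin at 220 (264772 to 267935), 440 (266526 to 267603) and 881 mg/kg (256393 to 268082). No hepatocyte marker was called lower at 220 or 440 mg/kg. At 881 mg/kg 3 of 11 were, against 6.73% of all genes, or 0 without replicate 2, against 3.93%. The lymphocyte sum lay wholly below vehicle at 110, 440 and 881 mg/kg, and the blood sum at 881 mg/kg. The bile duct sum lay wholly above vehicle at 440 and 881 mg/kg, and the endothelial sum overlapped it at every dose. The part of these cell types in the tubulin values was not tested.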

How the data were processed

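Liver RNA was measured on 20 Affymetrix arrays, 5 vehicle and 3 for each of 5 doses. The authors deposited log2 signals summarised by RMA, per the submitters' processing notes; its settings and version are not stated there. RMA equalises the distributions of the arrays and compresses low signals. Array medians lay between 6.31 and 6.40, and no pair of arrays shared more than 0.0226% of values.

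Of 31042 probe sets, after 57 controls were removed, the platform annotation named 1 gene for 20826, several for 436 and none for 9780. For each of 14217 genes, the brightest probe set on average was used.

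All 6 groups entered 1 linear model in limma 3.58.1 (lmFit, eBayes, R 4.3.3), with two-sided tests adjusted by Benjamini-Hochberg across genes. The trend used the dose step, 0 to 5. On simulated data for 881 mg/kg against vehicle, with 200 of 14217 genes changed, 64% of changes of 0.5 and 98% of changes of 1 (log2) were recovered, with 15 false calls. Python 3.11.15, pandas 2.3.3, NumPy 2.4.6 and matplotlib 3.10.9 made the tables and figures.

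Members and gene lists were chosen with earlier results of these data known. Named are the 9 tubulins, the 5 genes best correlated with Tubb2a, and Mki67. From each list up to 3 called genes with the largest change in the comparison with most calls are named (881 mg/kg where tied with the trend). The trend had most calls for the destabilisers and for the actin and intermediate filament genes. For the named genes of these lists the values given are those against vehicle. Alternatives were a replicate block, other ways to represent genes, a signal filter, other scalings, another variance model, array weights, a Gapdh covariate and each array left out.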

Additional observations from a re-analysis of the deposited data

Results flagged for a closer look

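In the vehicle group, replicate 5 was the highest of 5 livers for Tubb6, with a log2 signal of 7.65 against 7.20 to 7.30 in the other 4. Its gap to the next liver was 0.782 of the whole range, above the critical value of 0.71 for 5 samples. The 11 tubulin probe sets were checked in this way in the vehicle group, and chance marks about 1 in 20 groups.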

How the results depend on the processing

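Of the calls over 55 to 440 mg/kg, those of Tuba4a and Tubb4b held in 29 of 29 other settings, with adjusted p up to 0.00241 and 0.039; single-dose calls held less often. The cause of the changes below was not tested. The filter on low signals left no value for Tubb2b and Tubb6.

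The replicate numbers shared by the groups do not pair the samples beyond their number. Deviations of same-numbered samples correlated between -0.116 and 0.348 (45 pairs, median 0.136, 28 over 0.1), and 15 of 18 samples correlated best with their own number, a hint from the data and not from the design. With the replicate block, tubulins called were 1 at 55, 1 at 220 and 1 at 440 mg/kg against vehicle (2 each without the block), and genes called were 322 at 220 mg/kg (488 without) and 225 between 440 and 55 mg/kg (147 without). The block turned Tubb2b to 0.029 at 110 mg/kg, 0.0044 at 440 mg/kg and 0.028 over 55 to 440 mg/kg, and the shared Tuba1 probe set to 0.022 at 881 mg/kg, none of them called.

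With the Gapdh covariate, genes called were 730, 823 and 818 at 55, 110 and 220 mg/kg, 103 between 881 and 440 mg/kg and 291 between 440 and 55 mg/kg, against 400, 513, 488, 37 and 147 without it. Tubulins called were then 2 at 110 mg/kg, 2 at 881 mg/kg and 4 between 881 and 440 mg/kg (1, 0 and 0 without it), and the shared Tuba1 probe set turned to 0.29 at 881 mg/kg. The covariate was 5.24 on 881 mg/kg replicate 2 and 0.81 to 1.64 on the other arrays, so this setting is not separate from leaving that array out. Without that array the 3 tubulin counts were also 2, 2 and 4. With array weights, genes called were 842, 800, 1293 and 2511 at 55, 110, 220 and 440 mg/kg, 2681 over 55 to 440 mg/kg, 174 between 881 and 440 mg/kg and 387 between 440 and 55 mg/kg. Tubulins called were 2 at 110 mg/kg, 2 at 881 mg/kg and 4 between 881 and 440 mg/kg, and the shared Tuba1 probe set turned to 0.26 at 881 mg/kg.

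With arrays centred on their medians, with every probe set of 1 symbol tested, or with the mean of probe sets, tubulins called were 1 at 220 mg/kg and 1 at 440 mg/kg, since Tubb4b was lost. The mean of probe sets called 1 tubulin at 881 mg/kg, Tubb5. Centring turned the shared Tuba1 probe set to 0.018 at 881 mg/kg, and quantile normalization turned Tubb2b to 0.0055 at 110 mg/kg and 0.0044 over 55 to 440 mg/kg.

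Leaving out 1 array at a time gave 127 to 648 genes called at 55 mg/kg, 212 to 705 at 110, 204 to 748 at 220, 867 to 2000 at 440 and 1643 to 2867 at 881 mg/kg, 1163 to 2294 over 55 to 440 mg/kg, 1 to 114 between 881 and 440 mg/kg and 48 to 301 between 440 and 55 mg/kg. Tubulins called ran from 0 to 3 at 55 mg/kg, 0 to 2 at 110, 0 to 2 at 220, 1 to 2 at 440 and 0 to 2 at 881 mg/kg, and 0 to 4 between 881 and 440 mg/kg. Uncalled differences that changed sign ranged, for Tubb2b, from -0.021 to 0.17 at 55 mg/kg, -0.074 to 0.030 at 110, -0.20 to 0.022 at 220 and -0.10 to 0.0064 at 440 mg/kg, -0.075 to 0.0042 over 55 to 440 mg/kg and -0.14 to 0.017 between 881 and 440 mg/kg. The dose trend ranged from -0.010 to 0.043 for Tubb5 and from -0.017 to 0.034 for Tubb4b, and the shared Tuba1 probe set from -0.25 to 0.35 at 881 mg/kg.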
